A study of Homo sapiens with 12 samples.

Results

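Insulin was given to 12Z cells that carried an empty vector, and the response of their transcriptome is described here across all genes that averaged at least 1 count per library. 12Z is an immortalized epithelial line from endometriosis, in which tissue resembling the uterine lining grows outside the uterus. The comparison took 6 of the 12 RNA-seq libraries used here. Of these 6, 3 came from cells with non-targeting siRNA and pBabe control vector given vehicle. The remaining 3 came from cells with the same siRNA and vector given 100 nM insulin. The other 6 libraries came from cells that received pBabe with PIK3CA H1047R, an activated form of a phosphoinositide 3-kinase (PI3K) subunit, in place of the empty vector, and they enter here only where the responses are compared. Serum was withdrawn from all cells for 4 h before insulin or vehicle, and RNA was collected after 24 h of either. The siRNA and the plasmid were introduced transiently, so the control cells had been through a pair of transfections, and all libraries derive from a single cell line.

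Insulin binds its receptor, a tyrosine kinase, and at high concentration also the related receptor of insulin-like growth factor 1 (IGF1). The receptors phosphorylate the adaptor proteins IRS1 and IRS2, which recruit PI3K. PI3K then activates the kinase AKT, which holds FOXO transcription factors in the cytoplasm and relieves the brake on mTORC1, a kinase complex that drives protein synthesis, amino acid and sterol supply and glycolysis. A further branch runs through RAS and the kinase ERK. Epithelium and stroma of the endometrium both carry insulin receptors.

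Libraries of the 6 samples held 21483124 to 29255708 gene counts, and levels are given below in CPM, the count of a gene relative to all gene counts of its library, which is not scaled to gene length. Between replicates, the chi-square per degree of freedom was 2.81 to 4.88, above the value of 1 that counting alone would give. On the first principal component of the 6 libraries, which held 36.9% of the variance, all vehicle libraries lay apart from all insulin libraries, while vehicle replicate 3 stood apart from the other 5 on the second component (19.7%). The epithelial label was examined with marker genes. Keratins were abundant (KRT8 at 1359 to 1481 CPM, KRT19 at 565 to 702 CPM), whereas the epithelial adhesion genes EPCAM (0.607 to 1.07 CPM) and CDH1 (1.31 to 2.32 CPM) were low, and the mesenchymal genes VIM (1726 to 2003 CPM) and COL1A1 (2849 to 3005 CPM) were abundant too. Of 6 epithelial markers 1 was called by edgeR, KRT19, which was higher in insulin. None of 8 mesenchymal, 3 endothelial or 3 tested immune markers was called, with 3, 1 and 0 of them at an unadjusted p under 0.05. Among the epithelial markers 3 were at an unadjusted p under 0.05, KRT19 and, in the other direction, KRT7 and KRT18. KRT7 was at 61.8, 62.6 and 63.2 CPM in vehicle and 51.9, 57.4 and 53.3 CPM in insulin. Summed endothelial markers ranged from 3.58 to 3.88 CPM in vehicle and from 2.62 to 3.64 CPM in insulin, summed immune markers from 5.48 to 5.75 CPM and from 6.12 to 6.52 CPM, and CD3E was at 0 in all 6 libraries. In bulk RNA, fewer cells of a type and less RNA per cell cannot be told apart.

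Insulin altered a small and mostly well expressed set of genes, and decreases outnumbered increases. In total, 22756 genes were tested with edgeR, of which 372 (1.63%) were differentially expressed genes (DEG), 110 with increased (0.483%) and 262 with decreased expression (1.15%). Genes were called where the false discovery rate (FDR) was under 0.001. Most changes were small. The median log2 fold change was 0.31 among increased and -0.36 among decreased genes, and 15 increased and 39 decreased genes moved over 1.5-fold. In all 372 DEG the 3 insulin libraries lay wholly above or wholly below the 3 vehicle libraries, a condition met by 20.3% of all tested genes (10.3% higher and 9.92% lower). DEG had a median of 70.5 CPM against 3.30 CPM for all tested genes, a difference in counts and not in level per gene length, and 371 of them averaged at least 1 CPM, so that among the 13267 tested genes at this level 2.8% were DEG. Protein-coding genes made up 367 of the DEG, or 2.47% of the 14864 tested. Of 4754 long noncoding RNAs 2 were DEG (0.0421%). The classes were not compared at matched CPM, so gene class and level cannot be told apart in these shares. Without insulin replicate 2 the number of DEG was 233, 63 higher and 170 lower.

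**Figure D1:**
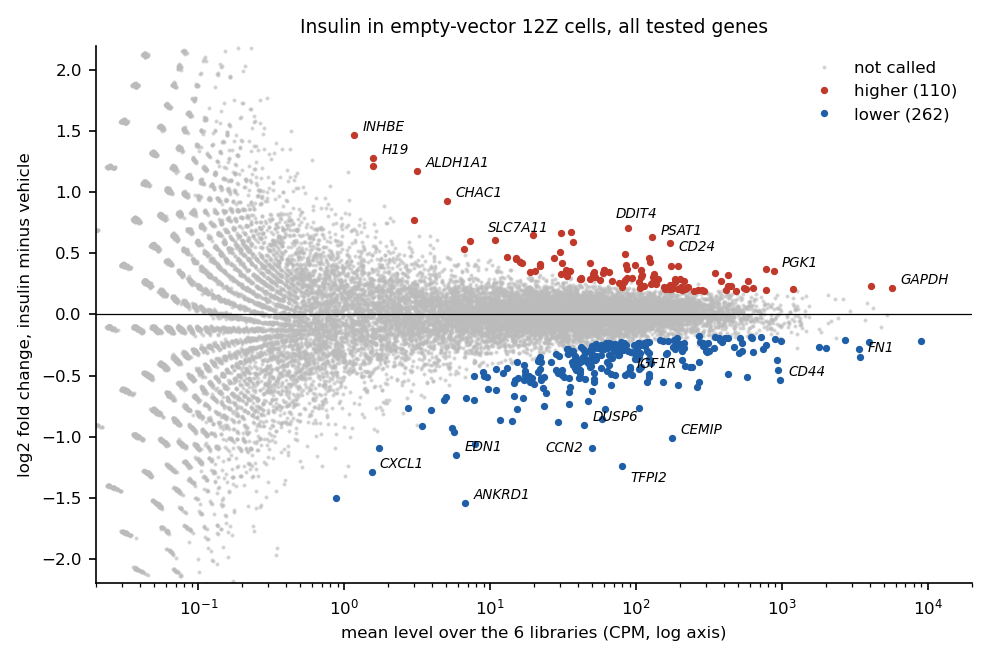
Each point is a gene, placed by its mean level over the 6 empty-vector libraries (CPM, log axis) and its log2 fold change by insulin (insulin minus vehicle); red and blue points mark the 110 increased and 262 decreased genes at FDR below 0.001, and 574 genes, none of them DEG, lie outside the axes. Decreases outnumber increases, and most coloured points lie to the right, at levels above 1 CPM.

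Among the 12 largest decreases in genes averaging at least 1 CPM were TFPI2, EDN1, CEMIP, HHIP, CXCL1 and ACTBL2. TFPI2, an inhibitor of serine proteases around the cell that lies on chromosome 7 (93885396 to 93890753 in hg38), was at 124, 111 and 102 CPM in vehicle and 52.2, 49.5 and 41.4 CPM in insulin (log2 fold change -1.24 ± 0.0742, adjusted p = 1.85e-15). No insulin library came near the lowest vehicle library. EDN1, the precursor of the vasoconstrictor endothelin 1, was at 8.41, 7.39 and 8.45 CPM in vehicle and 4.59, 3.3 and 2.99 CPM in insulin (log2 fold change -1.15 ± 0.125, adjusted p = 1.1e-08). CEMIP, which takes part in the breakdown of hyaluronan, was at 231, 239 and 239 CPM in vehicle and 119, 111 and 122 CPM in insulin (log2 fold change -1.01 ± 0.0438, adjusted p = 5.3e-20). Its replicates differed little within either group. HHIP, a decoy receptor that binds hedgehog ligands, was at 8.3, 7.32 and 6.77 CPM in vehicle and 5.36, 3.4 and 2.77 CPM in insulin (log2 fold change -0.96 ± 0.147, adjusted p = 1.2e-05), with insulin replicate 1 closest to vehicle. The chemokine CXCL1 was at 2.78, 1.89 and 1.87 CPM in vehicle and 1.06, 0.825 and 0.796 CPM in insulin (log2 fold change -1.29 ± 0.232, adjusted p = 0.000188), and reads of this gene can be shared with near-identical chemokine genes. Its call was lost without vehicle replicate 1 or insulin replicate 2 or 3 (adjusted p = 0.00748, 0.00317 and 0.00247). ACTBL2, an actin gene whose reads can likewise be shared with other actins, was at 5.18, 4.11 and 4.01 CPM in vehicle and 2.39, 2.1 and 2.62 CPM in insulin (log2 fold change -0.91 ± 0.153, adjusted p = 6.24e-05). Its call was lost without vehicle replicate 1 or insulin replicate 2 (adjusted p = 0.00269 and 0.00198). NDRG4, a protein of the NDRG family, was at 2.48, 2.64 and 1.91 CPM in vehicle and 1.1, 1.44 and 0.758 CPM in insulin (log2 fold change -1.09 ± 0.211, adjusted p = 0.00052). Its call was lost without vehicle replicate 1 or 2 or insulin replicate 1 or 3 (adjusted p = 0.00442, 0.0101, 0.00351 and 0.0108) and with a filter of at least 1 CPM in 3 libraries or with counts from both strands (adjusted p = 0.00118 and 0.00164). ZNF704, a zinc finger protein, was at 7.58, 7.14 and 6.63 CPM in vehicle and 4.04, 4.16 and 3.03 CPM in insulin (log2 fold change -0.93 ± 0.123, adjusted p = 9.77e-07), with no overlap of its groups, and kept its call in every refit. ANKRD1, CCN2, SPRY1 and DUSP6 complete the 12 and are described with their groups below.

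The 3 largest increases were in genes that averaged under 2 CPM. INHBE, which encodes an activin and inhibin subunit, was at 0.609, 0.321 and 0.98 CPM in vehicle and 2.02, 1.51 and 1.55 CPM in insulin (log2 fold change 1.46 ± 0.262, adjusted p = 0.000176). H19, an imprinted long noncoding RNA, was at 0.876, 1.28 and 0.513 CPM in vehicle and 1.76, 1.99 and 2.99 CPM in insulin (log2 fold change 1.28 ± 0.256, adjusted p = 0.000804). ECM2, an extracellular matrix protein, was at 0.914, 1.14 and 0.747 CPM in vehicle and 2.39, 1.89 and 2.35 CPM in insulin (log2 fold change 1.21 ± 0.216, adjusted p = 0.00016). Insulin libraries lay above vehicle libraries in all of these, at means of at most a few CPM, and their calls leaned on single libraries. The INHBE call was lost without vehicle replicate 1 or 2 or insulin replicate 1 (adjusted p = 0.00172, 0.00882 and 0.0032) and with counts from both strands (adjusted p = 0.0122). That of H19 was lost without vehicle replicate 1 or 3 or insulin replicate 2 or 3 (adjusted p = 0.00663, 0.014, 0.00196 and 0.021) and with a filter of at least 1 CPM in 3 libraries (adjusted p = 0.00285), and that of ECM2 without vehicle replicate 1 or 3 or insulin replicate 1 or 3 (adjusted p = 0.00196, 0.0026, 0.00193 and 0.0016). CLCA2, a p53-regulated membrane protein, was at 2.25, 2.21 and 2.19 CPM in vehicle and 3.74, 3.61 and 4.06 CPM in insulin (log2 fold change 0.77 ± 0.157, adjusted p = 0.000984). Its call was lost without any 1 of the 6 libraries (adjusted p from 0.00346 to 0.00885) and with DESeq2 or with a filter of at least 1 CPM in 3 libraries (adjusted p = 0.00236 and 0.00199). CDH6, the adhesion protein K-cadherin, was at 8.19, 8.96 and 8.4 CPM in vehicle and 12.7, 13.8 and 12.6 CPM in insulin (log2 fold change 0.61 ± 0.0868, adjusted p = 3.47e-06) and kept its call in every refit, that is, with another tool, scaling, filter, strand setting or design and with any 1 of the 6 libraries left out.

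**Figure D2:**
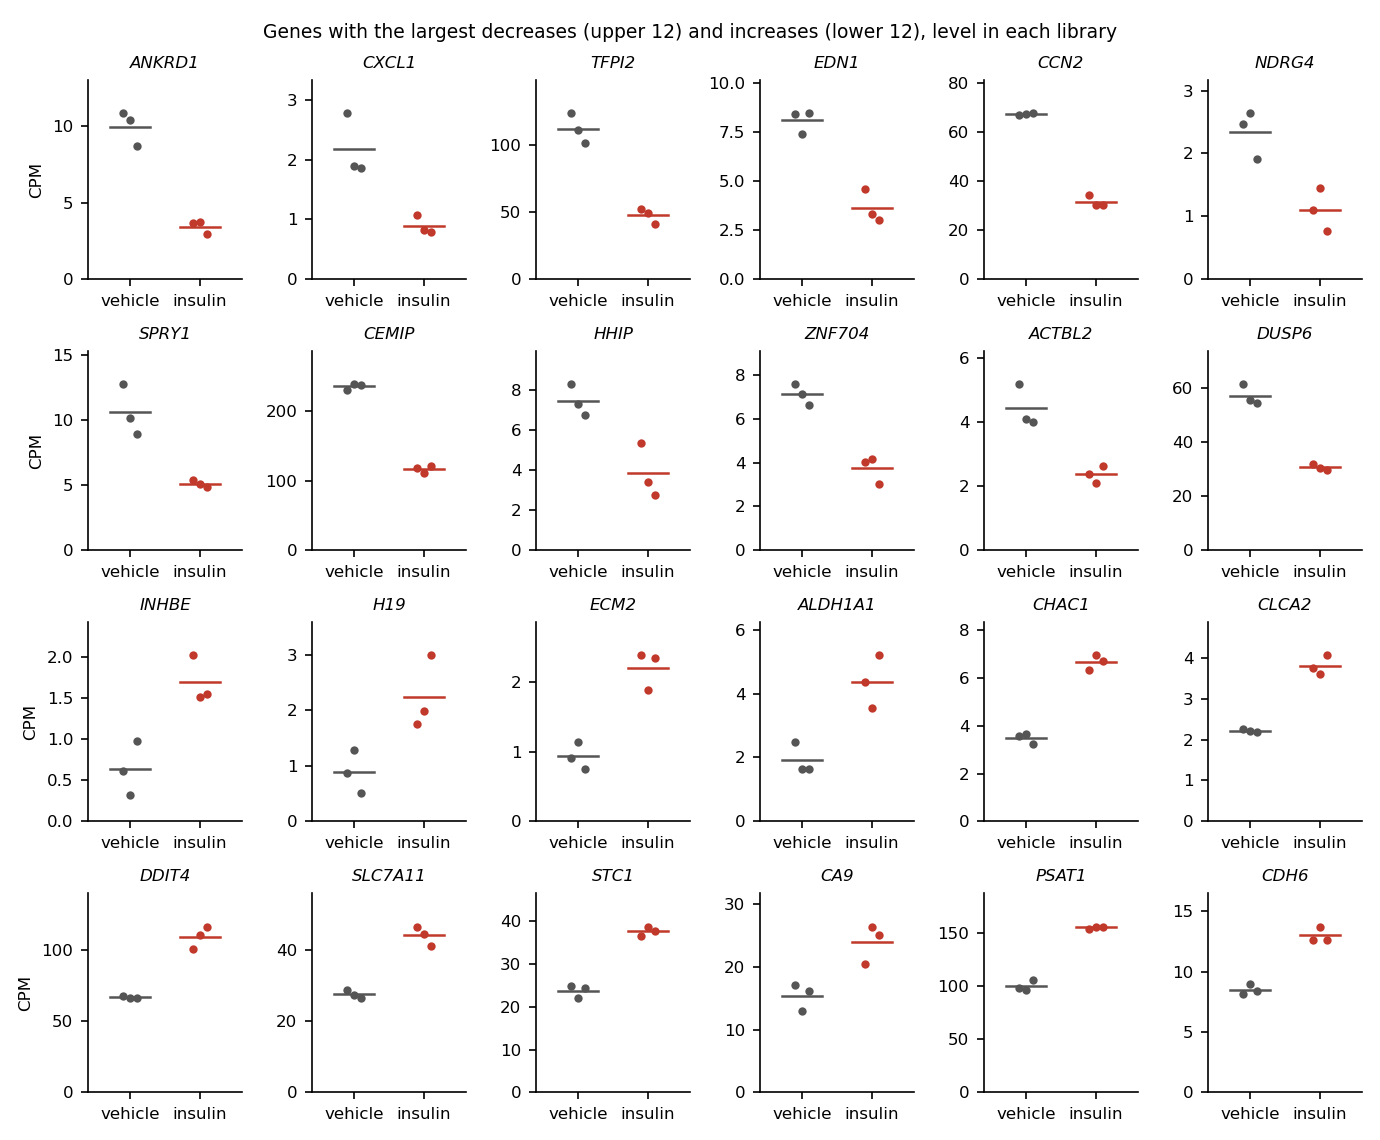
Levels (CPM) of the 12 genes with the largest decreases and the 12 with the largest increases at a mean of 1 CPM or more. Each panel has its own axis from 0. Vehicle libraries are in grey and insulin libraries in red. Points are libraries and lines are group means of 3. In every panel the insulin points lie wholly on one side of the vehicle points.

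Within the insulin pathway, transcripts of both signaling receptors and of the adaptors IRS1 and IRS2 fell. Of 15 tested insulin and IGF receptor and adaptor genes, 4 were lower and none higher (26.7%), and the list's median log2 fold change was -0.04. DEG made up 1.63% of all tested genes and 2.8% of those averaging at least 1 CPM. Higher DEG were 0.483% and lower DEG 1.15% of all tested genes, the shares to set beside each list count below. The insulin receptor INSR (chromosome 19, 7112255 to 7294414) was at 33.1, 31.2 and 34.9 CPM in vehicle and 26.9, 24.5 and 26.9 CPM in insulin (log2 fold change -0.34 ± 0.0609, adjusted p = 0.000194). IGF1R (chromosome 15, 98648539 to 98964530), which binds IGF1, was at 103, 99 and 106 CPM in vehicle and 74.5, 75.9 and 70.6 CPM in insulin (log2 fold change -0.48 ± 0.0452, adjusted p = 4.35e-10). The groups did not overlap in either receptor. IRS1 was at 43.7, 42.7 and 41.2 CPM in vehicle and 33, 34.3 and 33.5 CPM in insulin (log2 fold change -0.34 ± 0.0609, adjusted p = 0.000177). IRS2 was at 20.8, 21.5 and 22.6 CPM in vehicle and 17.7, 14.8 and 13.2 CPM in insulin (log2 fold change -0.50 ± 0.0769, adjusted p = 1.2e-05). Insulin replicate 1 held the highest IRS2 level of its group, still below every vehicle library. IGF1R and IRS2 kept their calls in every refit. INSR lost its call without vehicle replicate 1 or 3 or insulin replicate 2 (adjusted p = 0.00153, 0.00354 and 0.00717), and IRS1 without vehicle replicate 1 or 2 or insulin replicate 1, 2 or 3 (adjusted p = 0.00249, 0.00191, 0.00181, 0.00116 and 0.00138). IGF2R, which clears IGF2 and does not signal like the others, stayed within overlapping ranges at 371, 367 and 387 CPM in vehicle and 383, 356 and 356 CPM in insulin (log2 fold change -0.04 ± 0.0399, adjusted p = 0.693). The adaptors and inhibitors GRB2, SHC1, GAB1, SOS1, CBL, PTPN1, SH2B3 and GRB10 had log2 fold changes from -0.09 (SH2B3) to 0.10 (GRB10), none past the test, and the remaining 2 members, IRS4 and GRB14, were under 1 CPM.

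Of 18 tested PI3K and AKT pathway genes, 1 changed. PIK3R3, a regulatory subunit that joins the catalytic subunits to phosphorylated receptors and adaptors, was at 30.9, 28.3 and 29.3 CPM in vehicle and 47.6, 42.3 and 43.5 CPM in insulin (log2 fold change 0.59 ± 0.0591, adjusted p = 1.34e-09). All insulin libraries lay well above the vehicle libraries, and the call held in every refit. PIK3R1, the main regulatory subunit, was at 23.8, 23.7 and 23 CPM in vehicle and 31.8, 29.6 and 26.9 CPM in insulin (log2 fold change 0.32 ± 0.0676, adjusted p = 0.00145), which missed the threshold although its groups did not overlap. The catalytic subunit PIK3CA was at 89, 88.2 and 88.7 CPM in vehicle and 81, 85.9 and 80.9 CPM in insulin (log2 fold change -0.10 ± 0.0912, adjusted p = 0.672), a difference short of the threshold, in the gene that was transfected in the other cells. AKT1, AKT2, PDPK1, INPPL1, PHLPP1 and PHLPP2 had log2 fold changes from -0.04 (AKT2) to 0.06 (PHLPP2) with overlapping groups, and TRIB3, an inhibitor of AKT, was at 38.4, 36.5 and 38.3 CPM in vehicle and 42.3, 40.4 and 44 CPM in insulin (log2 fold change 0.16 ± 0.0574, adjusted p = 0.0924).

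Among the 4 FOXO factors, which AKT inactivates, FOXO3 and FOXO4 moved in opposite directions. FOXO3 was at 68.2, 68.5 and 73.7 CPM in vehicle and 85.9, 84.8 and 79.8 CPM in insulin (log2 fold change 0.25 ± 0.0465, adjusted p = 0.000246). FOXO4 was at 36.1, 37.6 and 37.8 CPM in vehicle and 31.3, 29 and 31.1 CPM in insulin (log2 fold change -0.29 ± 0.0559, adjusted p = 0.000587). The groups did not overlap in either gene, but the FOXO3 call was lost without vehicle replicate 1 or 2 or insulin replicate 1 or 2 (adjusted p = 0.00381, 0.00484, 0.00325 and 0.004) and the FOXO4 call without any 1 of the 6 libraries (adjusted p from 0.00138 to 0.0146) and with the 6 libraries fitted alone and a replicate block (adjusted p = 0.00115). FOXO1 was at 3.69, 3.46 and 3.55 CPM in vehicle and 3.45, 3.2 and 3.26 CPM in insulin (log2 fold change -0.11 ± 0.136, adjusted p = 0.773). Of 30 tested genes that FOXO factors are known to activate, 4 were lower and none higher, with a median log2 fold change of -0.19 against 0.00374 over all tested genes. They were IRS2, INSR, YPEL3 and KLF6. YPEL3, a small protein linked to growth arrest, was at 24.9, 26.6 and 27.5 CPM in vehicle and 17.1, 18.4 and 19.3 CPM in insulin (log2 fold change -0.52 ± 0.0681, adjusted p = 5.93e-07). KLF6, a zinc finger factor, was at 102, 100.2 and 102 CPM in vehicle and 81.8, 82.7 and 80.3 CPM in insulin (log2 fold change -0.31 ± 0.0434, adjusted p = 2.45e-06). Both kept their calls in every refit. The forkhead motif GTAAACA was searched on both strands of the 250 bases before and 50 after the first start listed for each gene (RefSeq, GRCh38.p14). Other starts of the same gene were not searched. The motif was present in 3 of the 25 promoters matched for this list, against 2.35% of 13370 promoters of tested genes. Of the decreased members only YPEL3 held it, at the listed start, which lies inside the gene. Its promoter (chr16:30096164-30096463, minus strand) is shown with the motif in capitals.
YPEL3: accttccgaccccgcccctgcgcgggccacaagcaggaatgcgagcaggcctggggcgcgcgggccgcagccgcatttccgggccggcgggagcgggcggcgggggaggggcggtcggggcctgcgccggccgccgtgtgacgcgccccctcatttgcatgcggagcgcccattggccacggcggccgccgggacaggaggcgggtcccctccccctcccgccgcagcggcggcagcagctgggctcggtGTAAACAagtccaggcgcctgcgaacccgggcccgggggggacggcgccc

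**Figure D3:**
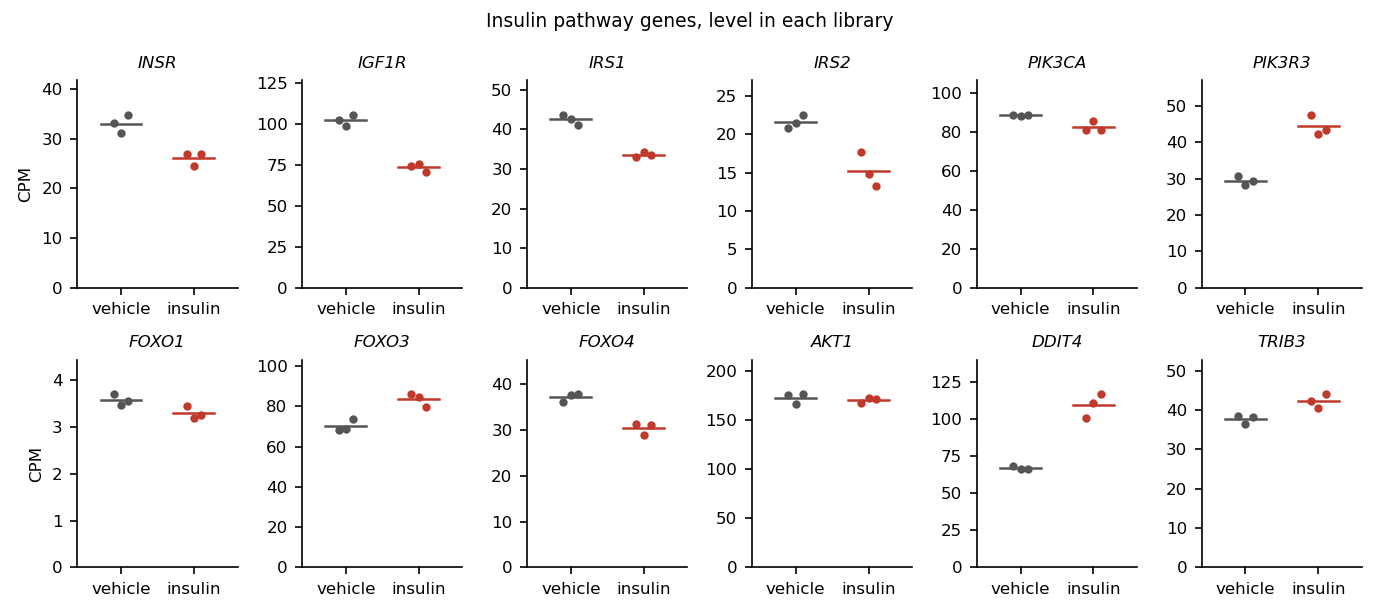
Levels (CPM, each panel with its own axis from 0) of 12 genes of the insulin pathway, with vehicle libraries in grey and insulin libraries in red; points are libraries and lines are group means of 3. INSR, IGF1R, IRS1, IRS2 and FOXO4 sit lower with insulin and PIK3R3, FOXO3 and DDIT4 higher, whereas the AKT1 groups overlap.

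Of 11 tested members of the list of IGF ligands and binding proteins, 2 were higher and 3 lower. PAPPA, a protease that releases IGF from its binding proteins, was at 15.3, 15 and 15.1 CPM in vehicle and 8.66, 7.46 and 8.87 CPM in insulin (log2 fold change -0.86 ± 0.0897, adjusted p = 3.91e-09). IGFBP2, which holds IGFs outside the cell, was at 30.9, 26.4 and 25.4 CPM in vehicle and 16.3, 18.9 and 19.6 CPM in insulin (log2 fold change -0.60 ± 0.0771, adjusted p = 4.9e-07). IGFBP7, a more distant relative, was at 44.7, 45.4 and 41 CPM in vehicle and 32.2, 32 and 32.9 CPM in insulin (log2 fold change -0.44 ± 0.0556, adjusted p = 4.07e-07). All of these fell by more than the spread of their replicates and kept their calls in every refit. STC1, a glycoprotein known to inhibit PAPPA, was at 24.9, 22 and 24.4 CPM in vehicle and 36.5, 38.7 and 37.6 CPM in insulin (log2 fold change 0.66 ± 0.0916, adjusted p = 1.92e-06), a call lost with DESeq2 (adjusted p = 0.00284). IGFBP5, another IGF binding protein, was named after its values were seen and was at 76.3, 74.1 and 75.6 CPM in vehicle and 90.6, 95 and 85.4 CPM in insulin (log2 fold change 0.26 ± 0.0502, adjusted p = 0.000426), a call lost without vehicle replicate 1, 2 or 3 or insulin replicate 1 or 2 (adjusted p = 0.00186, 0.00641, 0.00256, 0.00234 and 0.0137) and with a filter of at least 1 CPM in 3 libraries (adjusted p = 0.00124). IGF1, IGF2 and IGFBP1 did not reach the count minimum.

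Of 28 tested genes of glucose uptake and glycolysis, 14 were higher and none lower. The share higher was 50%, against 0.483% of all tested genes, and the median log2 fold change was 0.25. SLC2A1, the glucose transporter of the cell surface, was at 85, 83.1 and 87.1 CPM in vehicle and 113, 107 and 117 CPM in insulin (log2 fold change 0.40 ± 0.0487, adjusted p = 1.35e-07). HK2, which phosphorylates glucose in the opening step, was at 70.3, 74.4 and 75.3 CPM in vehicle and 93.3, 96.4 and 101 CPM in insulin (log2 fold change 0.40 ± 0.0582, adjusted p = 4.53e-06). PFKFB4, which sets the level of an activator of phosphofructokinase, was at 26, 23.1 and 25.4 CPM in vehicle and 32.9, 37.4 and 35.5 CPM in insulin (log2 fold change 0.51 ± 0.0757, adjusted p = 8e-06). Further down the pathway, GAPDH was at 5138, 5044 and 5431 CPM in vehicle and 6092, 5789 and 6242 CPM in insulin (log2 fold change 0.22 ± 0.0337, adjusted p = 2.03e-05). PGK1 was at 777, 789.7 and 729.7 CPM in vehicle and 919, 999.6 and 1021 CPM in insulin (log2 fold change 0.36 ± 0.0415, adjusted p = 5.8e-08). LDHA, which turns pyruvate into lactate, was at 708, 679 and 653 CPM in vehicle and 862, 879 and 902 CPM in insulin (log2 fold change 0.37 ± 0.0462, adjusted p = 2.09e-07). Every insulin library exceeded every vehicle library in all 6 genes. Leaving out 1 library gave 11 to 15 higher members, and GAPDH alone of these 6 lost its call, with a filter of at least 1 CPM in 3 libraries (adjusted p = 0.00101). PFKFB4 and DDIT4 are also known targets of hypoxia-inducible factors (HIF). Of 32 tested HIF target genes, 10 were higher and none lower, with a median of 0.23 and 6 higher without insulin replicate 2. CA9, a carbonic anhydrase of the cell surface, was at 17.1, 13 and 16.2 CPM in vehicle and 20.6, 26.5 and 25.2 CPM in insulin (log2 fold change 0.65 ± 0.0892, adjusted p = 1.92e-06). BNIP3, a mitophagy receptor, was at 171, 167 and 164 CPM in vehicle and 195, 230.4 and 235 CPM in insulin (log2 fold change 0.40 ± 0.0553, adjusted p = 2.54e-06). The list of TXNIP and arrestin-domain genes held 1 increase among 8 tested, ARRDC3, an arrestin-like protein. It was at 46.1, 47.3 and 41.8 CPM in vehicle and 57, 57.3 and 58 CPM in insulin (log2 fold change 0.35 ± 0.051, adjusted p = 6.44e-06).

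DDIT4 (chromosome 10, 72273919 to 72276036), which restrains mTORC1, was at 68, 66.4 and 66.2 CPM in vehicle and 100.4, 111 and 116 CPM in insulin (log2 fold change 0.71 ± 0.0553, adjusted p = 2.4e-12). The lowest insulin library lay far above the highest vehicle library. The call held in every refit. DDIT4 was the only DEG among 28 tested genes of mTORC1 and its upstream regulators (3.57%, against 2.8% of genes averaging at least 1 CPM). It is a known target of both HIF and ATF4, and was counted in both lists. The core of the hypoxia response element, ACGTG on either strand, is short and was present in 25.7% of the promoters of tested genes. It was found in 15 of 29 matched promoters of the HIF list and in 5 of the 9 matched promoters of its increased members (BNIP3, CA9, DDIT4, FAM162A and P4HA1). The promoter of DDIT4 (chr10:72273674-72273973, plus strand) is shown because this member changed most among those that hold the motif, which is in capitals.
DDIT4: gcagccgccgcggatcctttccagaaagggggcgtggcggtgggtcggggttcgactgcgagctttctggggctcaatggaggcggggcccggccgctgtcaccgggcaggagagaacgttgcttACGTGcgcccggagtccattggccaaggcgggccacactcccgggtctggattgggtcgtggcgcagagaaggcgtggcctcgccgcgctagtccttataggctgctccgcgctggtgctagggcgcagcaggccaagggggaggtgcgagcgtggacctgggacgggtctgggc

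ATF4 is the transcription factor through which cells raise amino acid synthesis, uptake and tRNA charging when mTORC1 is active or amino acids run short. Of 40 tested ATF4 target genes, 13 were higher and none lower, with a median log2 fold change of 0.22. PSAT1, an enzyme of serine synthesis, was at 98.7, 96.3 and 106 CPM in vehicle and 154, 156 and 156 CPM in insulin (log2 fold change 0.63 ± 0.0425, adjusted p = 4.13e-14). SLC7A11, the cystine transporter, was at 28.9, 27.5 and 26.7 CPM in vehicle and 46.7, 44.7 and 41.3 CPM in insulin (log2 fold change 0.67 ± 0.0619, adjusted p = 1.8e-10). CHAC1, which degrades glutathione, was at 3.58, 3.64 and 3.22 CPM in vehicle and 6.31, 6.94 and 6.71 CPM in insulin (log2 fold change 0.93 ± 0.131, adjusted p = 3.08e-06). These 3 genes kept their calls in every refit, and their groups did not overlap. The number of higher ATF4 targets leaned on single libraries, with 8 without vehicle replicate 1, 6 without vehicle replicate 2, 8 without insulin replicate 2 and 8 without insulin replicate 3. Of 20 tested cytosolic aminoacyl-tRNA synthetases, 7 were higher and none lower (median 0.19), with 4 without vehicle replicate 1 or 2 or insulin replicate 3 and 3 without insulin replicate 2. WARS1 was at 111, 119 and 124 CPM in vehicle and 146, 148 and 150.1 CPM in insulin (log2 fold change 0.33 ± 0.0475, adjusted p = 4.5e-06), YARS1 at 94.9, 96 and 97.7 CPM in vehicle and 117, 122 and 118 CPM in insulin (log2 fold change 0.31 ± 0.0423, adjusted p = 2.14e-06). GARS1 was at 176, 179.9 and 183 CPM in vehicle and 223, 218 and 219.5 CPM in insulin (log2 fold change 0.29 ± 0.0396, adjusted p = 1.25e-06). The C/EBP-ATF motif TGATGNAA was present in 1.88% of promoters of tested genes and in 6 of 31 matched promoters of the list. Among the increased members with a matched promoter, 1 of 9 held it, CHAC1 (chr15:40953221-40953520, plus strand), in capitals on the strand opposite to the gene.
CHAC1: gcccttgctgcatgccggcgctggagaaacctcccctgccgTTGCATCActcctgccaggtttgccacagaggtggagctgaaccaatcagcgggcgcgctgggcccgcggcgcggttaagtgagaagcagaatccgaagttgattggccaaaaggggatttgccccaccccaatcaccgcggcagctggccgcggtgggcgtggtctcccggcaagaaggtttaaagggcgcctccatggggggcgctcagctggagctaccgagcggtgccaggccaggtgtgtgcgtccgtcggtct

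Of 26 tested genes of the unfolded protein response, which relieves stress of the endoplasmic reticulum, only the chaperone HSPA5 was higher, at 394, 418 and 418 CPM in vehicle and 477, 477 and 494 CPM in insulin (log2 fold change 0.23 ± 0.0381, adjusted p = 3.69e-05), and the median was 0.06. This call was lost without vehicle replicate 1 (adjusted p = 0.00112). The share of the list called was 3.85%, against 2.8% of tested genes averaging at least 1 CPM. Of 25 tested cytosolic and mitochondrial heat shock genes 3 were higher and none lower (12%), with a median of 0.14, and 5 were higher with DESeq2 or without a filter. In 15 of the 25 the insulin libraries lay wholly above vehicle, against 10.3% of all tested genes. Among the 3 was HSPH1, at 163, 173 and 159.7 CPM in vehicle and 208, 204 and 194 CPM in insulin (log2 fold change 0.29 ± 0.0426, adjusted p = 5.92e-06). HSPD1, the mitochondrial chaperonin, was at 389, 396 and 397 CPM in vehicle and 468, 461 and 458 CPM in insulin (log2 fold change 0.23 ± 0.0357, adjusted p = 1.68e-05). In both the insulin libraries lay wholly above vehicle. Of 23 NRF2, glutathione and cystine genes, SLC7A11 and CHAC1 were higher and TXNRD1, a thioredoxin reductase, lower, at 748, 767 and 777 CPM in vehicle and 677, 666 and 669 CPM in insulin (log2 fold change -0.19 ± 0.0356, adjusted p = 0.000407). This call was lost without vehicle replicate 2 or 3 or insulin replicate 1, 2 or 3 (adjusted p = 0.00361, 0.00411, 0.00116, 0.00589 and 0.00258) and with the 6 libraries fitted alone and a replicate block or with a filter of at least 1 CPM in 3 libraries (adjusted p = 0.00102 and 0.001).

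Few genes of lipid, polyamine and nucleotide synthesis passed the test. SCD, which makes monounsaturated fatty acids, was at 3626, 3658 and 3887 CPM in vehicle and 4433, 4381 and 4328 CPM in insulin (log2 fold change 0.23 ± 0.0321, adjusted p = 1.67e-06). INSIG1, a feedback regulator of sterol synthesis, was at 558, 512 and 508 CPM in vehicle and 631, 658 and 615 CPM in insulin (log2 fold change 0.27 ± 0.0404, adjusted p = 8.77e-06). ODC1, the first enzyme of polyamine synthesis, was at 103, 103 and 109 CPM in vehicle and 139.9, 143 and 142 CPM in insulin (log2 fold change 0.43 ± 0.0433, adjusted p = 1.45e-09). These 3 were higher in every insulin library and in every refit. ME1, which makes NADPH, and ABCA1, a cholesterol exporter, were higher by 0.40 and 0.42 on the log2 scale, calls lost without vehicle replicate 3 or insulin replicate 2 (adjusted p = 0.00104 and 0.00109) and without insulin replicate 2 (adjusted p = 0.00116), respectively. In total, 2 of 20 fatty acid genes, 2 of 24 cholesterol genes, 1 of 17 polyamine and arginine genes and none of 26 pentose phosphate and nucleotide genes were called by edgeR. Of the last, 7 had an unadjusted p under 0.05 and DESeq2 called 1 higher. The medians of the 4 lists lay between -0.01 and 0.07. Their shares called were 10%, 8.33%, 5.88% and 0%, against 2.8% of tested genes averaging at least 1 CPM.

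Many of the genes that ERK signaling induces feed back to limit it. Of 23 tested members, 11 were lower and none higher (47.8%), with a median log2 fold change of -0.32. SPRY1, which restrains receptor tyrosine kinases, was at 12.8, 10.1 and 8.92 CPM in vehicle and 5.36, 5.09 and 4.85 CPM in insulin (log2 fold change -1.06 ± 0.111, adjusted p = 4.03e-09), and its relative SPRY4 at 32, 28.4 and 28.2 CPM in vehicle and 20.3, 18.9 and 17.6 CPM in insulin (log2 fold change -0.64 ± 0.0733, adjusted p = 3.34e-08). DUSP6, the phosphatase that inactivates ERK, was at 61.4, 55.5 and 54.6 CPM in vehicle and 31.9, 30.5 and 29.5 CPM in insulin (log2 fold change -0.90 ± 0.0556, adjusted p = 3.39e-15). ETV4, an ETS transcription factor, was at 42.2, 41.1 and 43.6 CPM in vehicle and 26.4, 28.3 and 27.1 CPM in insulin (log2 fold change -0.63 ± 0.0556, adjusted p = 6.01e-11). All of these kept their calls in every refit, and 11 members were lower whichever library was left out, with medians from -0.33 to -0.23. MYC, which belongs both here and among drivers of ribosome biogenesis, was at 40.6, 42 and 41.4 CPM in vehicle and 30.8, 31.8 and 32 CPM in insulin (log2 fold change -0.39 ± 0.0527, adjusted p = 1.36e-06), and no other gene of the 27 tested in the ribosome biogenesis list changed. None of the 11 tested EGF ligands and ERBB receptors was called by edgeR or DESeq2, and 4 had an unadjusted p under 0.05. EGFR itself was at 337, 366 and 357 CPM in vehicle and 333, 316 and 301 CPM in insulin (log2 fold change -0.16 ± 0.0414, adjusted p = 0.0125). Among 26 immediate early factors, MAFF, at 21.7, 17.5 and 18.7 CPM in vehicle and 11, 11 and 11.9 CPM in insulin (log2 fold change -0.78 ± 0.0853, adjusted p = 1.34e-08), and KLF6 were lower and KLF10 higher, the last a call lost without vehicle replicate 1, 2 or 3 or insulin replicate 1 or 2 (adjusted p = 0.00165, 0.00461, 0.00198, 0.00826 and 0.0016). The ETS motif CCGGAAG was present in none of the 15 matched promoters of the ERK list, against 16.9% of promoters of tested genes.

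YAP and TAZ act with TEAD factors on genes of growth, adhesion and matrix. Of 32 tested genes of this list, 9 were lower and none higher (28.1%), and the median was -0.12. ANKRD1 (chromosome 10, 90912096 to 90921087), a muscle ankyrin repeat protein widely used as a readout of YAP, had the largest decrease of all genes at or above 1 CPM, at 10.8, 10.4 and 8.68 CPM in vehicle and 3.63, 3.71 and 2.96 CPM in insulin (log2 fold change -1.54 ± 0.114, adjusted p = 5.32e-13). CCN2, the matricellular connective tissue growth factor, was at 67, 67.5 and 67.6 CPM in vehicle and 34.4, 30.1 and 30.1 CPM in insulin (log2 fold change -1.09 ± 0.0539, adjusted p = 2.69e-18). CCN1 was at 222, 228 and 241 CPM in vehicle and 156, 148 and 159 CPM in insulin (log2 fold change -0.58 ± 0.0435, adjusted p = 9.46e-13). The highest insulin level lay far below the lowest vehicle level in each. All 3 genes kept their calls in every refit, and leaving out 1 library gave 7 to 9 lower members. Of 22 actin and serum response factor (SRF) genes, 3 were lower, ANKRD1, MYLK and VCL. MYLK, the myosin light chain kinase, was at 231, 242 and 229 CPM in vehicle and 195, 194 and 191 CPM in insulin (log2 fold change -0.28 ± 0.0377, adjusted p = 1.54e-06). VCL, which links actin to adhesion sites, was at 537, 557 and 548 CPM in vehicle and 488, 477 and 471 CPM in insulin (log2 fold change -0.19 ± 0.0345, adjusted p = 0.000159). The VCL call was lost without vehicle replicate 2 or insulin replicate 2 or 3 (adjusted p = 0.00275, 0.0026 and 0.00197). The TEAD motif GGAATG was present in 11.4% of promoters of tested genes and in 8 of 23 matched promoters of the list, and of the 7 decreased members with a promoter ANKRD1, CCN2 and THBS1 held it. ANKRD1 (chr10:90921038-90921337, minus strand) held 2 and CCN2 (chr6:131951323-131951622, minus strand), chosen after its sequence was seen, held 3, shown in capitals. The CArG box of SRF was present in 7 of 19 promoters of its list against 1.05% of promoters of tested genes. MYLK was the only decreased member of that list to hold it. The MYLK window (chr3:123620499-123620798, minus strand) lay inside the gene, which spans 123610049 to 123884332.
ANKRD1: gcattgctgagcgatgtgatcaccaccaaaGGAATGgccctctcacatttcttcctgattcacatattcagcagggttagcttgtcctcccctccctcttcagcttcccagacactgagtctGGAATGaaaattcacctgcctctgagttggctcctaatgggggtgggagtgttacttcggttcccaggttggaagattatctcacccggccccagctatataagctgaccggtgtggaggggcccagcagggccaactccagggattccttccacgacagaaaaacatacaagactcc
CCN2: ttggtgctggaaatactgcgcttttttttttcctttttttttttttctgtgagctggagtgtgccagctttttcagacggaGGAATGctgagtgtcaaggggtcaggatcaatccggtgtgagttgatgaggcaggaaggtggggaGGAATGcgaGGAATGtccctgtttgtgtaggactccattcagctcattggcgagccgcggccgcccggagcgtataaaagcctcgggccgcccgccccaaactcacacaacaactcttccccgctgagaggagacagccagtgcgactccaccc

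Changes in the extracellular matrix and its receptors were mostly decreases. Of 33 tested matrix proteins and proteoglycans, 10 were lower and 1, TNC, higher, and the number lower was 6 without vehicle replicate 2 or insulin replicate 2. FN1, fibronectin, was at 3522, 3869 and 3991 CPM in vehicle and 3064, 2857 and 3043 CPM in insulin (log2 fold change -0.34 ± 0.0407, adjusted p = 7.54e-08). THBS1, thrombospondin 1, was at 1019, 1066 and 1059 CPM in vehicle and 871, 777 and 779.6 CPM in insulin (log2 fold change -0.37 ± 0.0392, adjusted p = 4.94e-09). LTBP2, which binds fibrillin, was at 57.9, 52.4 and 56.8 CPM in vehicle and 40.9, 42.5 and 40.8 CPM in insulin (log2 fold change -0.43 ± 0.0515, adjusted p = 1.19e-07). FBLN1, fibulin 1, was at 49, 49.4 and 49.2 CPM in vehicle and 36.8, 37.2 and 41.2 CPM in insulin (log2 fold change -0.36 ± 0.0543, adjusted p = 1.03e-05). In each of these the insulin libraries lay wholly below vehicle, and the calls held in every refit. Of 29 collagen genes, 6 chains were lower and 2 collagen-modifying prolyl hydroxylases, P4HA1 and P4HA2, higher. The P4HA1 call was lost without insulin replicate 2 (adjusted p = 0.00126) and the P4HA2 call without any 1 of the 6 libraries (adjusted p from 0.00119 to 0.0116) and with the 6 libraries fitted alone and a replicate block, with RLE size factors, with a filter of at least 1 CPM in 3 libraries, with counts from both strands or with replicate number as a block (adjusted p = 0.00167, 0.00132, 0.00161, 0.00511 and 0.00117). COL8A1 was at 54.4, 53 and 50.3 CPM in vehicle and 37.3, 34.5 and 37.9 CPM in insulin (log2 fold change -0.53 ± 0.0519, adjusted p = 1.12e-09). COL13A1, a membrane-bound chain, was at 19.5, 18.8 and 14.8 CPM in vehicle and 11.2, 11.7 and 10.8 CPM in insulin (log2 fold change -0.66 ± 0.0957, adjusted p = 4.41e-06). The fibrillar chain COL1A1, at 2849 to 3005 CPM, was not a DEG. Of 25 integrin and laminin chains, 4 integrins were lower, including ITGB5, a receptor for vitronectin, at 145, 140.5 and 144 CPM in vehicle and 108, 107 and 111 CPM in insulin (log2 fold change -0.40 ± 0.0396, adjusted p = 1.31e-09). ITGB4, which binds laminin, was at 72, 72.3 and 71.6 CPM in vehicle and 52.8, 56.9 and 54.9 CPM in insulin (log2 fold change -0.39 ± 0.0466, adjusted p = 8.74e-08). CD44, the main cell surface receptor of hyaluronan, was at 1145, 1181 and 1121 CPM in vehicle and 799.8, 807 and 765 CPM in insulin (log2 fold change -0.54 ± 0.037, adjusted p = 7.12e-14), and with CEMIP it made up the decreases among 13 tested genes of hyaluronan. Of 17 metalloproteinases and their inhibitors, MMP2 and MMP24 were lower by 0.24 and 0.28 on the log2 scale, and neither call held in every refit. The MMP2 call was lost without vehicle replicate 2 or 3 or insulin replicate 1, 2 or 3 (adjusted p = 0.0133, 0.0071, 0.00234, 0.0243 and 0.00111) and with the 6 libraries fitted alone and a replicate block or with replicate number as a block (adjusted p = 0.00125 and 0.00111). The MMP24 call was lost without vehicle replicate 1, 2 or 3 or insulin replicate 1 or 2 (adjusted p = 0.00548, 0.00262, 0.0022, 0.00247 and 0.0155) and with counts from both strands (adjusted p = 0.00494).

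Genes in the list of plasminogen activation, coagulation and vasoactive factors showed the same direction. Of 17 tested genes, 6 were lower and none higher (35.3%), whichever library was left out. THBS1 was counted here and among the matrix proteins above. Besides TFPI2, EDN1 and THBS1, they included PLAU, the urokinase plasminogen activator, at 44.9, 39.4 and 38.4 CPM in vehicle and 28.9, 31.1 and 25.5 CPM in insulin (log2 fold change -0.52 ± 0.0785, adjusted p = 9.21e-06). SERPINE2, an inhibitor of thrombin and urokinase, was at 515, 476 and 489.9 CPM in vehicle and 353, 356 and 346 CPM in insulin (log2 fold change -0.49 ± 0.0432, adjusted p = 6.59e-11). Of 30 tested cytokines, chemokines and NF-kB targets, 6 were lower and 1, CXCL12, higher. PTX3, a soluble pattern recognition protein, was at 25.1, 23.7 and 22.5 CPM in vehicle and 16.6, 16.3 and 15.1 CPM in insulin (log2 fold change -0.57 ± 0.0716, adjusted p = 2.67e-07). LIF, a cytokine required for implantation of the embryo, was at 21.2, 21 and 18.2 CPM in vehicle and 13.6, 15.5 and 13.9 CPM in insulin (log2 fold change -0.50 ± 0.0793, adjusted p = 2.7e-05). Both kept their calls in every refit, whereas the number of lower members was 3 without vehicle replicate 1 or insulin replicate 3. None of 49 tested interferon-stimulated genes was called by edgeR or by DESeq2, and the median was -0.12. Of the 49, 40 had a negative log2 fold change and 8 an unadjusted p under 0.05. Without a filter on low counts 5 were lower, and 2 with the 6 libraries fitted alone. Among the most abundant, IFITM3 was at 273, 258 and 262 CPM in vehicle and 236, 244 and 242 CPM in insulin (log2 fold change -0.13 ± 0.0853, adjusted p = 0.48) and LGALS3BP at 403, 417 and 407 CPM in vehicle and 368, 379 and 401 CPM in insulin (log2 fold change -0.10 ± 0.0497, adjusted p = 0.338).

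Developmental and hormone-related pathways held scattered changes. Of 27 tested TGF-beta, activin and BMP genes, INHBE was higher and 4 were lower. FST, follistatin, which traps activins, was at 46.1, 44.5 and 40.05 CPM in vehicle and 26.3, 25 and 27.5 CPM in insulin (log2 fold change -0.73 ± 0.0645, adjusted p = 6.01e-11) and kept its call in every refit, whereas the number lower was 2 without insulin replicate 1 or 2 or any vehicle library and 1 without insulin replicate 3. Of 26 tested WNT genes only DKK1, a secreted WNT antagonist, changed, at 312, 304 and 322 CPM in vehicle and 212, 197 and 214 CPM in insulin (log2 fold change -0.59 ± 0.0413, adjusted p = 1.15e-13). The groups of both genes were clearly apart. Of 19 retinoic acid genes, 2 were higher and 2 lower. ALDH1A1 and ALDH1A3 both make retinoic acid, and their changes were opposite in sign. ALDH1A1 was at 2.48, 1.64 and 1.63 CPM in vehicle and 4.37, 3.54 and 5.19 CPM in insulin (log2 fold change 1.17 ± 0.200, adjusted p = 8.31e-05). This call was lost without vehicle replicate 2 or 3 or insulin replicate 3 (adjusted p = 0.00333, 0.00172 and 0.00272). ALDH1A3 was at 659, 676 and 679.7 CPM in vehicle and 477, 464 and 472 CPM in insulin (log2 fold change -0.51 ± 0.0361, adjusted p = 1.3e-13), with a narrow spread in both groups. CRABP2, which carries retinoic acid to the nucleus, was at 23.4, 24.2 and 20.9 CPM in vehicle and 31.2, 33.1 and 30.3 CPM in insulin (log2 fold change 0.46 ± 0.0659, adjusted p = 3.82e-06). TGM2, a transglutaminase induced by retinoic acid, was at 36.9, 32.5 and 31.5 CPM in vehicle and 25.4, 24.8 and 22.4 CPM in insulin (log2 fold change -0.48 ± 0.0657, adjusted p = 1.92e-06). PTGFR, the receptor of prostaglandin F2-alpha, was the only change among 13 prostaglandin genes, at 20.5, 17.7 and 18.4 CPM in vehicle and 23.7, 26.8 and 24.8 CPM in insulin (log2 fold change 0.41 ± 0.0691, adjusted p = 6.72e-05), and was lost without vehicle replicate 2 or insulin replicate 2 (adjusted p = 0.00275 and 0.00296). None of 19 tested steroid receptor and steroid-handling genes was called by edgeR or DESeq2, and 4 had an unadjusted p under 0.05. NR3C1, the glucocorticoid receptor, was at 217, 221 and 217 CPM in vehicle and 233, 226 and 217 CPM in insulin (log2 fold change 0.05 ± 0.0379, adjusted p = 0.632).

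Several protein-coding genes of the mitochondrial genome were lower. Of the 13 mitochondrial genes, 7 were lower and none higher (53.8%), and all 13 had a negative log2 fold change (median -0.22). Leaving out 1 library gave 5 to 9 lower members, and the other alternatives at the same FDR gave 5 to 11. MT-CO1, a subunit of cytochrome c oxidase, was at 3668, 3691 and 3740.00 CPM in vehicle and 2934, 3106 and 3069 CPM in insulin (log2 fold change -0.28 ± 0.0309, adjusted p = 1e-08). MT-CYB, of complex III, was at 1961, 1973 and 1934 CPM in vehicle and 1559, 1687 and 1644 CPM in insulin (log2 fold change -0.26 ± 0.0348, adjusted p = 8.29e-07). MT-ND6, the only member encoded on the light strand, was at 142, 118 and 108 CPM in vehicle and 98.3, 82 and 94.3 CPM in insulin (log2 fold change -0.43 ± 0.0633, adjusted p = 6.98e-06), with wide spread among vehicle libraries. The ribosomal RNA MT-RNR2 was at 9678, 9724 and 9560.00 CPM in vehicle and 8192, 8180.00 and 8598 CPM in insulin (log2 fold change -0.21 ± 0.0312, adjusted p = 5.41e-06). All mitochondrial transcripts together took 2.92 to 2.96% of gene counts in vehicle and 2.45 to 2.58% in insulin. Of 29 nuclear subunits of the respiratory chain none was called by edgeR (median 0.06), although 11 had an unadjusted p under 0.05, all of them positive, and DESeq2 called 3 higher. ATP5F1B was at 694, 662 and 674 CPM in vehicle and 736, 742 and 764 CPM in insulin (log2 fold change 0.14 ± 0.0338, adjusted p = 0.00536).

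Of 20 S phase genes none was called by edgeR and 1 was lower by DESeq2, with 3 at an unadjusted p under 0.05 and a median of 0.01. Of 25 G2/M genes none was called by edgeR or DESeq2, with 5 at an unadjusted p under 0.05 and a median of -0.01. MKI67, the proliferation marker, was at 862, 904 and 953 CPM in vehicle and 930.1, 879 and 854 CPM in insulin (log2 fold change -0.03 ± 0.0394, adjusted p = 0.798), and its groups overlapped. Among D and E cyclins and CDK inhibitors, 21 in all, CDKN1A, which halts the cycle and is a target of p53, was higher at 148, 143 and 157 CPM in vehicle and 189.5, 208 and 193 CPM in insulin (log2 fold change 0.40 ± 0.045, adjusted p = 2.67e-08) in every refit, and CDKN2B was lower, a call lost without vehicle replicate 1 or 2 or insulin replicate 1, 2 or 3 (adjusted p = 0.00435, 0.00647, 0.00121, 0.0056 and 0.0054). Of 25 p53 targets CDKN1A and MDM2, the ligase that degrades p53, were higher, and the MDM2 call (log2 fold change 0.26 ± 0.051, adjusted p = 0.000689) was lost without vehicle replicate 1, 2 or 3 or insulin replicate 1 or 2 (adjusted p = 0.00529, 0.0109, 0.00153, 0.00842 and 0.0161) and with a filter of at least 1 CPM in 3 libraries (adjusted p = 0.00314). None of 30 lysosome and autophagy genes was called by edgeR, although 13 had an unadjusted p under 0.05 and DESeq2 called 2 lower. Of 20 keratins, cadherins and factors of epithelial-mesenchymal transition, CDH6 and KRT19 were higher and CDH11, CDH13 and ZEB2 lower. The KRT19 call (log2 fold change 0.22) was lost without vehicle replicate 1 or insulin replicate 3 (adjusted p = 0.00121 and 0.00131), that of CDH11 without vehicle replicate 1 or insulin replicate 3 (adjusted p = 0.00316 and 0.00293) and that of ZEB2 without vehicle replicate 2 or 3 or insulin replicate 2 or 3 (adjusted p = 0.011, 0.0118, 0.0123 and 0.0089) and with the 6 libraries fitted alone and a replicate block, with a filter of at least 1 CPM in 3 libraries, with scaling to library totals or with replicate number as a block (adjusted p = 0.00206, 0.00101, 0.00119 and 0.00127). Of 18 other amino acid and ion transporters SLC43A1 and SLC20A1 were lower. The SLC43A1 call was lost without vehicle replicate 3 or insulin replicate 2 or 3 (adjusted p = 0.00819, 0.00283 and 0.00541) and the SLC20A1 call without insulin replicate 2 (adjusted p = 0.00135).

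**Figure D4:**
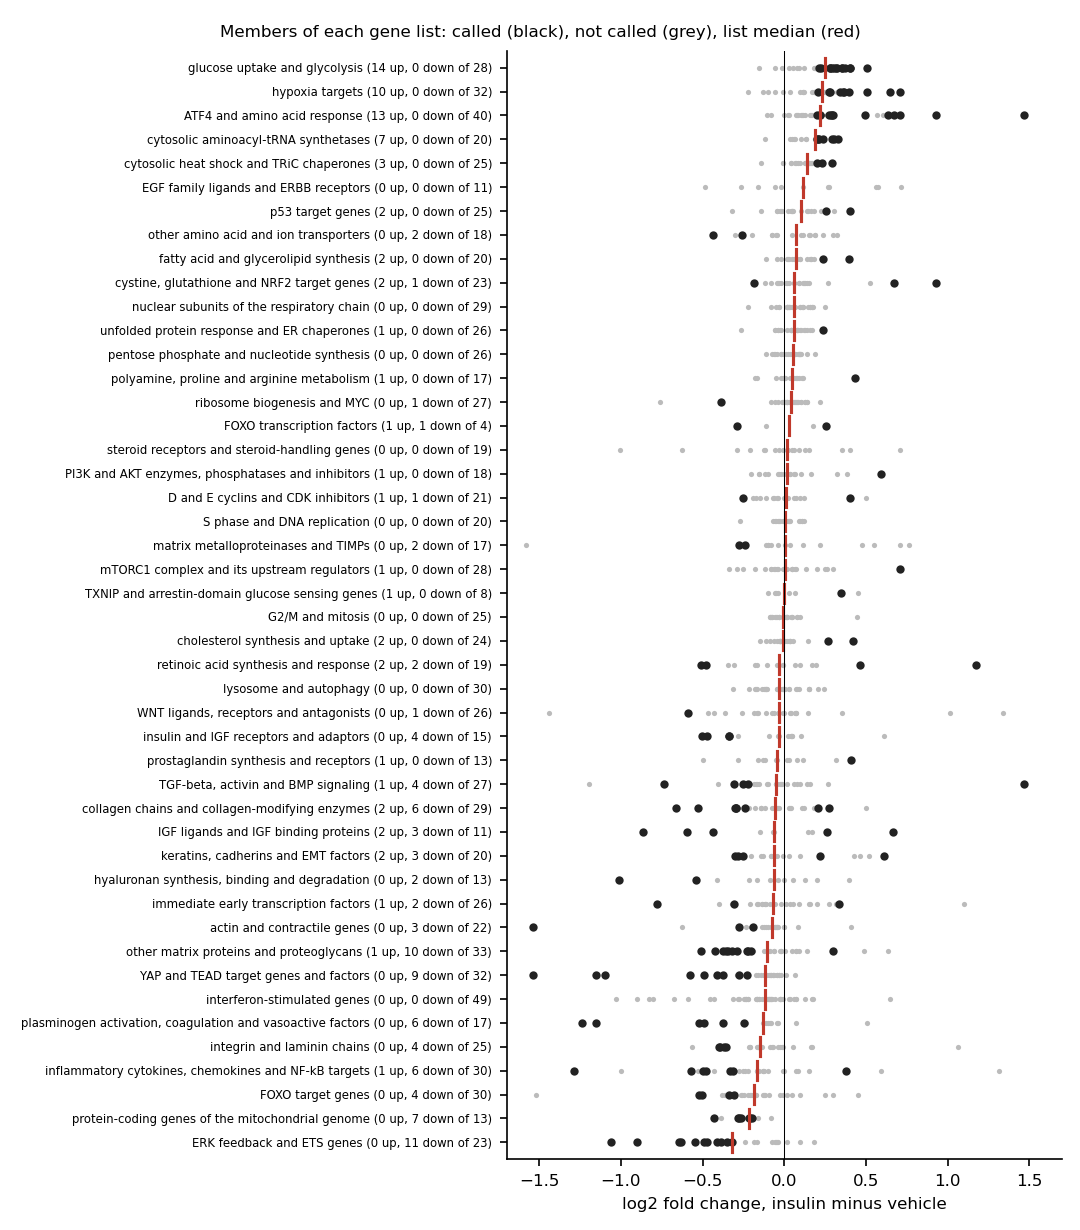
Log2 fold change by insulin (insulin minus vehicle) of every tested member of 46 gene lists, ordered by list median (red bars), with DEG in black, other members in grey and the numbers of members higher and lower beside each name; 10 members lie beyond the axis limits of 1.7. Glycolysis, HIF and ATF4 targets sit at the top and ERK feedback and mitochondrial genes at the bottom.

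Several DEG belonged to none of these lists. CD24, a small surface glycoprotein, was at 138, 131 and 138 CPM in vehicle and 203, 202 and 205 CPM in insulin (log2 fold change 0.59 ± 0.0447, adjusted p = 1.06e-12), with almost no spread within either group. AK4, a mitochondrial adenylate kinase, was at 103, 99 and 107 CPM in vehicle and 142, 146 and 138 CPM in insulin (log2 fold change 0.46 ± 0.0522, adjusted p = 2.64e-08). CLDN1, a tight junction protein, was at 83.1, 73 and 71 CPM in vehicle and 42.6, 41.4 and 41.3 CPM in insulin (log2 fold change -0.86 ± 0.0603, adjusted p = 1.22e-13). The insulin and vehicle ranges were far apart in all 3 genes. TNFRSF11B, osteoprotegerin, a decoy receptor for RANKL, was at 139, 124 and 129.9 CPM in vehicle and 77.4, 78.1 and 75.3 CPM in insulin (log2 fold change -0.77 ± 0.0503, adjusted p = 2.24e-14). SCG2, secretogranin II, was at 42.3, 36.2 and 35.3 CPM in vehicle and 20.9, 22.3 and 18.6 CPM in insulin (log2 fold change -0.88 ± 0.0845, adjusted p = 5.2e-10). MEGF10, an engulfment receptor, was at 21.2, 16.4 and 17.5 CPM in vehicle and 9.58, 12 and 8.45 CPM in insulin (log2 fold change -0.87 ± 0.0997, adjusted p = 3.88e-08). KCNAB1, a potassium channel subunit, was at 83.2, 75.4 and 73.2 CPM in vehicle and 45.1, 48.9 and 41.5 CPM in insulin (log2 fold change -0.77 ± 0.0616, adjusted p = 3.87e-12). These 7 genes kept their calls in every refit. PPP1R3G, which targets a phosphatase to glycogen, was at 11.4, 10.6 and 10.7 CPM in vehicle and 14, 15.8 and 15.3 CPM in insulin (log2 fold change 0.47 ± 0.0800, adjusted p = 9.12e-05). Its call was lost without vehicle replicate 2 or insulin replicate 2 (adjusted p = 0.00191 and 0.00231). EPHB3, an ephrin receptor, was at 6.24, 4.89 and 6.12 CPM in vehicle and 7.49, 9.56 and 8.98 CPM in insulin (log2 fold change 0.60 ± 0.115, adjusted p = 0.000466). Its call was lost without vehicle replicate 2 or 3 or insulin replicate 2 or 3 (adjusted p = 0.0178, 0.00136, 0.012 and 0.00401) and with a filter of at least 1 CPM in 3 libraries (adjusted p = 0.00163). EEF2, the elongation factor that moves the ribosome along mRNA, was at 4142, 4311 and 4282 CPM in vehicle and 3519, 3534 and 3827 CPM in insulin (log2 fold change -0.23 ± 0.034, adjusted p = 8.84e-06).

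To determine whether the same genes responded when PI3K was activated beforehand, the insulin effect was compared between empty-vector and H1047R cells, which share no library. The difference of the effects was tested in the same edgeR fit. It was significant for 9.07% of all tested genes and for 15.3% of those averaging at least 1 CPM. The genes below were chosen by their calls in empty-vector cells, and the same empty-vector libraries enter the difference. This choice can raise the share that differs and leave medians nearer 0 in H1047R cells. Signs are compared whether or not the change in H1047R cells was called. Of the 110 genes increased in empty-vector cells, 35 differed. In 22 of these the increase was larger in H1047R cells, in 1 it was smaller, and in 12 the sign was opposite. Of the 262 decreased genes 140 differed, and in 86 of them the sign was opposite, in 46 the decrease was larger in H1047R cells, and in 8 it was smaller. By their own test, 9.85% of all tested genes were higher and 9.8% lower with insulin in H1047R cells. Of the genes above, 72 of the 110 increased genes were also increased there and 6 decreased, while 133 of the 262 decreased genes were also decreased and 52 increased. The median log2 fold change of the increased genes was 0.31 in empty-vector and 0.33 in H1047R cells, and that of the decreased genes -0.36 and -0.22. PIK3CA itself rose with insulin in H1047R cells (log2 fold change 1.62) and not in empty-vector cells, so that vector and PIK3CA level cannot be told apart in this comparison. The H1047R libraries given insulin also stood apart in sequencing measures. Multiply placed reads were 8.48 to 9.51% in them, 14.3 to 15.2% in H1047R vehicle and 13.6 to 15.4% in empty-vector libraries. They held 30071951 to 37918025 gene counts, more than any other library. Whether this contributed to the differences was not tested.

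Most of the ERK feedback genes were among those that differed, 16 of 23. DUSP6 had log2 fold changes of -0.90 in empty-vector and 0.57 in H1047R cells (difference -1.47 ± 0.075, adjusted p = 1.56e-18). Of the 15 insulin receptor and adaptor genes 3 differed. IGF1R was lower in both, with log2 fold changes of -0.48 and -0.52, without a called difference (difference 0.05 ± 0.0637, adjusted p = 0.688), whereas IRS1 changed by -0.34 and 0.34 (difference -0.68 ± 0.0836, adjusted p = 4.21e-08). In the list of glucose uptake and glycolysis 11 of 28 differed, and SLC2A1 was raised by 0.40 and 0.88 (difference -0.48 ± 0.0677, adjusted p = 6.35e-07). CHAC1 was raised by 0.93 and 1.95 (difference -1.02 ± 0.169, adjusted p = 1.01e-05). ANKRD1 had log2 fold changes of -1.54 and -0.28 (difference -1.26 ± 0.15, adjusted p = 1.61e-08). Hyaluronan receptor CD44 changed by -0.54 and 0.44 (difference -0.98 ± 0.0522, adjusted p = 6.06e-18). CD24 changed by 0.59 and -1.21 (difference 1.80 ± 0.0652, adjusted p = 6.97e-23). INHBE, H19 and CLDN1 changed by 1.46, 1.28 and -0.86 in empty-vector cells and by 1.33, 1.09 and -0.81 in H1047R cells, and these differences missed the threshold.

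**Figure D5:**
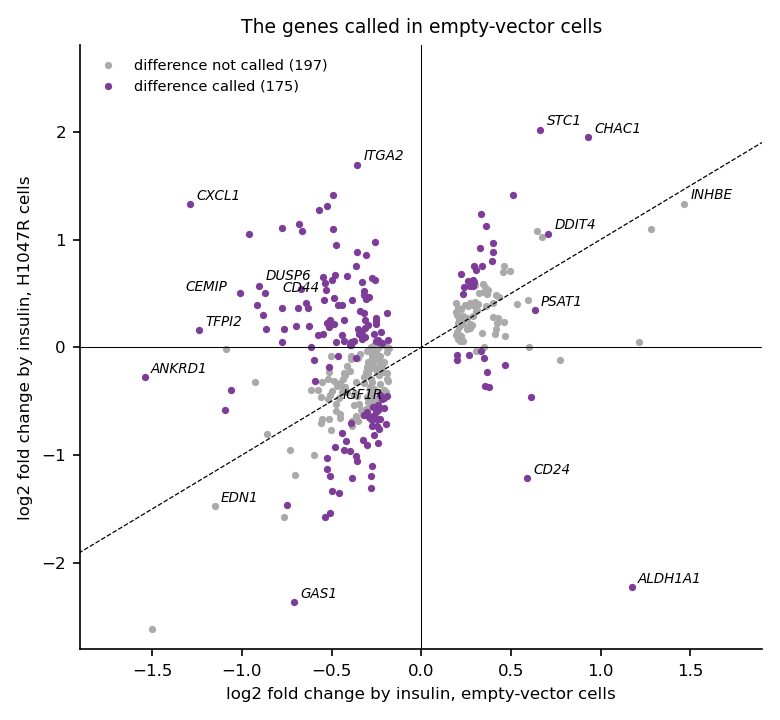
Log2 fold change by insulin in empty-vector cells (horizontal) and in H1047R cells (vertical) for the 372 genes called in empty-vector cells; purple marks the 175 genes whose effects differed at FDR below 0.001, grey the other 197, and the dashed line marks equal effects. Points in the upper left and lower right, such as DUSP6, CD44, CD24 and ALDH1A1, had effects of opposite sign in the 2 kinds of cells.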

How the data were processed

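RNA was sequenced from 12 samples of 12Z cells, 3 per group, which the study describes as independent experiments. Reads were trimmed by the authors (cutadapt, Trim Galore), and STAR placed them on hg38 and counted pairs per gene, as the methods and the submitters' processing notes have it. The deposited values are raw counts of uniquely placed pairs, which leaves out reads shared by near-identical genes. The sources used here give no versions of the trimming, alignment and counting tools. The GENCODE release they name carries a mouse label, and the human release is not given in the sources used here. Reverse-strand counts were used (93.5 to 93.7% of strand-specific counts in the 6 empty-vector libraries). Rows that name no gene stayed out of library sizes and tests. In these 6 libraries they were 3.12 to 4.09% of reads unmapped, 13.6 to 15.4% multiply placed, 3.94 to 4.51% outside genes and 3.31 to 3.50% ambiguous. Of 60617 identifiers 42009 had a symbol. For genes with a mean count of 1 or more per library, edgeR 4.0.16 was run (quasi-likelihood, TMM scaling, R 4.3.3) in 1 fit of all 12 libraries with 8 residual degrees of freedom. The threshold was a Benjamini-Hochberg FDR below 0.001, and the test was checked on simulated counts. Log2 fold changes are given ± SE (the absolute value over the square root of F, 3 libraries a group), and CPM values use TMM-scaled library sizes. DESeq2 1.42.0, other scalings, filters, the strand setting, a replicate block, the 6 libraries alone, an FDR of 0.05 and leaving out each library were alternatives. Promoters came from RefSeq, and gene coordinates and gene classes from a separate human GENCODE annotation.

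The genes named were the 12 largest increases and decreases with groups that do not overlap, the 10 largest of each among genes in no list, up to 4 called members of each list or else its 2 most abundant, all members of the receptor, PI3K and FOXO lists, and the 6 most abundant called genes in each direction, all at 1 CPM or more. The text gives part of these 167 genes. The members, the 46 lists and the rule were chosen with earlier results of these data known. Lists are described by counts and medians and were not tested.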

Additional observations from a re-analysis of the deposited data

Results flagged for a closer look

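The insulin effect was compared between empty-vector and H1047R cells for the 57 genes that had the largest changes or belonged to the receptor, PI3K or FOXO lists, and in 22 of them the difference (empty-vector minus H1047R, log2 scale) passed FDR below 0.001 in the edgeR fit. All are listed here because the effect differed between groups of cells, and no cause was tested. Genes taken for their large changes were chosen by the empty-vector libraries, which also enter the difference.

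Genes lowered in empty-vector cells made up a large part. The difference was -2.61 for CXCL1, -2.02 for HHIP, -1.51 for CEMIP, -1.47 for DUSP6, -1.40 for TFPI2, -1.31 for ACTBL2 and -0.68 for IRS1, and the log2 fold change in H1047R cells was positive in each of these. It was -1.26 for ANKRD1, -0.67 for SPRY1 and -0.51 for CCN2, whose log2 fold changes were nearer 0 in H1047R cells, and 0.37 for FOXO4, whose decrease was larger there.

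Among genes raised in empty-vector cells, the difference was -1.35 for STC1, -1.02 for CHAC1 and -0.35 for DDIT4, which rose further in H1047R cells, and 0.29 for PSAT1, which rose less. For CDH6 and ALDH1A1 it was 1.07 and 3.40, and both fell in H1047R cells, by 0.46 and 2.22 on the log2 scale. ALDH1A1 and CXCL1 were at low levels in empty-vector cells, and both calls there were lost without some libraries, as given above.

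The rest were genes with no called change in empty-vector cells. The difference was -1.72 for PIK3CA, which the plasmid of the H1047R cells also encodes, -1.66 for GRB10, an adaptor that inhibits the insulin receptor, -0.87 for SH2B3, -0.77 for TRIB3 and -0.36 for INPP4B, a phosphatase of the PI3K pathway.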

How the results depend on the processing

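All 372 genes called kept their sign in every alternative, and among the 125 called genes that the rule names 79 kept their call in every alternative, 46 lost it in at least 1 and none reversed. The number of genes called ran from 335 (a filter of at least 1 CPM in 3 libraries) to 514 (no filter) across the other tools, scalings, filters, strand setting and designs, and DESeq2 called 492. Without a filter 170 genes were higher, against 110. At FDR below 0.05 there were 1206 genes called, 525 higher and 681 lower, the share of higher calls went from 29.6% to 43.5%, and the insulin effects of empty-vector and H1047R cells differed in 4848 genes, against 2064. With 1 library left out, 233 to 295 genes were called, 63 to 92 higher and 170 to 208 lower, and 1687 to 1914 differed between the cells. The lowest number higher came without insulin replicate 2, and it was 65 without vehicle replicate 2 and 73 without vehicle replicate 3. The median log2 fold change of all genes stayed between -0.00238 and 0.0143.

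Same-numbered vehicle and insulin libraries did not deviate together, with correlations of -0.0274, -0.00818 and 0.0271 over genes, so the numbers were not taken as pairs. With the replicate block 366 genes were called, 109 higher and 257 lower, and 2062 differed between the cells. For the 6 libraries alone 435 were called, and 342 with the replicate block.

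Genes under 1 CPM gave 1 call of 372. The median SE of the log2 fold change was 0.782 for genes under 1 CPM and 0.0618 for the others, and the smallest change detectable at either level was not tested.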

Other observations

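A few further groups were chosen after their values were seen and are given as values only. Of 6 receptor genes for LIF and related cytokines, which signal through the shared subunit gp130, 3 were lower. IL6ST, which encodes gp130 itself, was at 829, 817 and 792 CPM in vehicle and 680.1, 678 and 647 CPM in insulin (log2 fold change -0.28 ± 0.0365, adjusted p = 5.34e-07). LIFR, its partner for LIF, was at 257, 245 and 242 CPM in vehicle and 197, 189 and 169.5 CPM in insulin (log2 fold change -0.42 ± 0.0517, adjusted p = 1.61e-07). OSMR, the oncostatin M receptor, was at 284, 284 and 286 CPM in vehicle and 251, 254 and 248 CPM in insulin (log2 fold change -0.18 ± 0.0357, adjusted p = 0.000779), a call lost without any 1 of the 6 libraries (adjusted p from 0.00336 to 0.00625) and with the 6 libraries fitted alone, with the 6 libraries fitted alone and a replicate block, with counts from both strands, with scaling to library totals or with replicate number as a block (adjusted p = 0.00143, 0.00381, 0.00103, 0.00112 and 0.00149). In all 3 the insulin libraries lay wholly below the vehicle libraries, while LIF itself was lower too. The other partners IL11RA and IL6R, at 4.19, 3.6 and 3.92 CPM in vehicle and 3.27, 3.82 and 3.68 CPM in insulin and at 1.03, 1.03 and 1.07 CPM in vehicle and 1.1, 1.38 and 1.06 CPM in insulin, respectively, had overlapping groups, and CNTFR was near 0 in all libraries.

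GYS1, glycogen synthase, was at 53.8, 57.6 and 59.6 CPM in vehicle and 68.3, 75.2 and 74.1 CPM in insulin (log2 fold change 0.35 ± 0.0504, adjusted p = 4.11e-06). GBE1, the branching enzyme, was at 131, 126 and 124 CPM in vehicle and 150.1, 155 and 160.1 CPM in insulin (log2 fold change 0.29 ± 0.0432, adjusted p = 8.46e-06). PGM1, which interconverts glucose phosphates on the way into and out of glycogen, was at 98.8, 98 and 93.4 CPM in vehicle and 122, 119 and 123 CPM in insulin (log2 fold change 0.32 ± 0.0466, adjusted p = 4.25e-06). With PPP1R3G, these 4 genes passed the threshold in empty-vector cells. PPP1R3C, a related phosphatase subunit that binds glycogen, was at 44.1, 46.9 and 48.1 CPM in vehicle and 56.5, 55.7 and 54.5 CPM in insulin (log2 fold change 0.26 ± 0.0541, adjusted p = 0.0012) and missed it, as did GYG1, UGP2, GSK3B and PPP1R3B, with log2 fold changes of 0.19, 0.09, 0.13 and 0.75 (adjusted p = 0.0148, 0.284, 0.0969 and 0.587). Among enzymes of glycogen breakdown were PYGB, at 229, 227 and 221 CPM in vehicle and 211, 225 and 224 CPM in insulin (log2 fold change -0.04 ± 0.0392, adjusted p = 0.731), and PYGL, at 120.00, 126 and 117 CPM in vehicle and 122, 134 and 134 CPM in insulin (log2 fold change 0.10 ± 0.0429, adjusted p = 0.18), both with overlapping groups.

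OXTR, the oxytocin receptor, was at 82.3, 90.3 and 85.5 CPM in vehicle and 74.8, 72.4 and 72.8 CPM in insulin (log2 fold change -0.23 ± 0.046, adjusted p = 0.000765), with all insulin libraries below vehicle, but its call was lost without vehicle replicate 2 or 3 or insulin replicate 1, 2 or 3 (adjusted p = 0.0203, 0.00294, 0.00181, 0.00992 and 0.00531) and with the 6 libraries fitted alone and a replicate block or with replicate number as a block (adjusted p = 0.00154 and 0.00104).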
